A study of Homo sapiens with 12 samples.

Results

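The kallikrein-related peptidases KLK5 to KLK14 were followed in 2 head and neck squamous carcinoma lines with and without MUC1-C silencing. The members are the 10 genes with these symbols among 39368 symbols in the count tables. Gene expression was measured by RNA-seq in CAL27 and HSC3 cells, both from squamous carcinoma of the tongue, that carry the vector tet-MUC1shRNA, a short hairpin RNA against MUC1 that doxycycline turns on. Cells were treated for 7 days with vehicle (0.1% DMSO) or with 500 ng/ml doxycycline (DOX), and each of the 4 groups had 3 libraries. All 4 groups carried the inducible hairpin, and no DOX-treated library with a control hairpin was analysed here, so DOX itself and MUC1-C silencing cannot be told apart. RNA came from triplicate cultures per the labels, which do not say whether these were set up as independent experiments, and p-values measure only the spread between them.

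Kallikrein-related peptidases are secreted serine proteases. They are made as inactive proenzymes, and removal of a short propeptide turns them on. KLK5, a trypsin-like enzyme that can activate itself, is known for activating KLK7 and KLK14 in the outer epidermis, where the enzymes cut the desmosomal proteins that hold corneocytes together. The inhibitor LEKTI, encoded by SPINK5, holds KLK5, KLK7 and KLK14 in check. Trypsin-like members such as KLK5, KLK6 and KLK14 can also activate the receptor PAR2, which F2RL1 encodes.

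The 10 members lie side by side on the minus strand of chromosome 19, from KLK5 to KLK14 over 140.9 kb (GRCh38, chr19:50943303-51084245). KLK5 spans chr19:50943303-50953093 and its neighbour KLK6 spans chr19:50958631-50969673. The bases just before the start sites are shown for 4 members. KLK5 was the most abundant member and the one called different in its response between the lines, KLK6 was higher with DOX in both lines at an adjusted p under 0.05, KLK13 was called lower in both, and the KLK7 window held a CCAAT box. The windows end at the base before a start site annotated in RefSeq, are written 5′ to 3′ on the minus strand from GRCh38.p14, and cover chr19:50953039-50953288 for KLK5, chr19:50969592-50969841 for KLK6, chr19:50983918-50984167 for KLK7 and chr19:51065093-51065342 for KLK13, with capitals marking a CCAAT box on either strand.
KLK5: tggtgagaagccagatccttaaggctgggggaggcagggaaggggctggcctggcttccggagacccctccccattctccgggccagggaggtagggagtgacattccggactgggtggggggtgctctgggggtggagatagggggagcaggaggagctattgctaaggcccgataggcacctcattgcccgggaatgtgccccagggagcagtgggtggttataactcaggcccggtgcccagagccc
KLK6: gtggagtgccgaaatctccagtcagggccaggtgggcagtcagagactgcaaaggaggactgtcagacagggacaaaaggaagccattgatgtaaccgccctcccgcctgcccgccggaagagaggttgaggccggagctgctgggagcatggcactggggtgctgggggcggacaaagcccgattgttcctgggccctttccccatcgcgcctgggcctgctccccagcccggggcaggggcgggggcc
KLK7: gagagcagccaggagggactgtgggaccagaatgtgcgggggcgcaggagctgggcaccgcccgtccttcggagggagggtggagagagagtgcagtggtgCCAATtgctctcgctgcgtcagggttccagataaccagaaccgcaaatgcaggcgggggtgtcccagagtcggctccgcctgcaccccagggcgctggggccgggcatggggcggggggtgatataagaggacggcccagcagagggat
KLK13: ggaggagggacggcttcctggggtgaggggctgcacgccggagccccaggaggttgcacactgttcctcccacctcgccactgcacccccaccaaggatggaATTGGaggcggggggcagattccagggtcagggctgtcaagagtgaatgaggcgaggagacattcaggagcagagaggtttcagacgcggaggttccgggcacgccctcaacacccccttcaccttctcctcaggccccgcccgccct

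In KLK7 the CCAAT box began at position -149 from the start site. In KLK13 it lay on the opposite strand at position -148. The letters CCAAT were searched on both strands over windows (from 250 bases before a start site to 50 after it) and were found in 3 of 16 windows of 9 members, which come from 2 genes, since a second, overlapping KLK7 window holds the same copy at position -2. Of 35116 windows of all genes, 34.6% held them. The AP-1 motif TGANTCA was in 0 of the 16 windows (7.71% of all windows), the GAS motif TTCNNNGAA in 0 (7.66%) and the TATA box TATAAA in 0 (11.5%). These matches describe letters in a window and say nothing about binding. KLK8 had no entry.

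The silencing was first checked on MUC1 itself. In CAL27 cells MUC1 stood at 58.4, 53.1 and 54.3 CPM (counts scaled to the depth of each library, normalized across all 12 libraries) with vehicle and at 2.92, 2.76 and 3.25 CPM with DOX, 18.5-fold lower (log2 fold change -4.21 ± 0.067 SE, edgeR adjusted p = 1.6e-19). HSC3 cells had much less MUC1 to begin with, at 1.66, 1.97 and 1.64 CPM, and 0.310, 0.267 and 0.132 CPM with DOX, 7.38-fold lower (log2 fold change -2.88 ± 0.38 SE, edgeR adjusted p = 2e-04). The squamous epithelial markers, 9 genes that include TP63 and keratins, were all detected in each group. Their summed level ran from 6524 to 6805 CPM in CAL27 vehicle and from 3183 to 3420.4 CPM in CAL27 DOX libraries, and from 6451 to 7239 CPM in HSC3 vehicle and 3090.0 to 3664 CPM in HSC3 DOX libraries. Of the 9, 5 were called lower with DOX in CAL27 and 4 in HSC3, with 0 higher in either (edgeR), beside 5.11% and 4.4% of all genes tested called lower. At an unadjusted p under 0.05, 6 were lower and 1 higher in CAL27 and 7 lower and 1 higher in HSC3, and DESeq2 called 0 higher. Shares of all genes at that p and by DESeq2 are not given here, so these counts cannot be set against them. Many genes pass when no fold change is asked, as the counts for CAL27 in the last section show. The 9 markers did not all move alike, and 3 are named here after their values were seen. The mean of KRT5 went from 3701 to 1786 CPM in CAL27 and from 2887 to 1443 CPM in HSC3. EPCAM was higher with DOX in both lines by less than 2-fold (log2 fold change 0.40 and 0.87, edgeR adjusted p = 6.7e-06 and 2.8e-05). CDH1 changed little (0.033 and -0.019, edgeR adjusted p = 0.52 and 0.87). The part of the 9 markers in the kallikrein results was not tested. Markers of stromal, endothelial, immune and melanocytic cells, 11 genes, summed to between 6.48 and 14 CPM over the 12 libraries, with COL1A1 alone at 4.21 to 9.14 CPM. Of the 11, 10 had more than 3 counts in some library of each CAL27 group, 6 in HSC3 vehicle and 4 in HSC3 DOX. MLANA stood at 0.543 to 1.99 CPM over the 12 libraries, and was called 2.10-fold higher in HSC3 than in CAL27 vehicle libraries. COL1A2 stood at 1.44 to 2.42 CPM and CD3E had 20 to 53 counts in CAL27, and both were at 0 in all HSC3 libraries. TYR was at 0 in all 12 libraries, and PECAM1 and PTPRC had at most 12 counts in any library. Total counts ran from 92866845 to 126328662 in CAL27, from 89730914 to 130393198 in HSC3 vehicle and from 134231542 to 169065103 in HSC3 DOX libraries. The HSC3 DOX libraries stood apart in how many counts came from each independent molecule. That number, estimated from genes missing in single libraries, was 8.93 to 17.2 there, against 4.18 to 7.43 in HSC3 vehicle and 2.45 to 3.33 in CAL27 libraries, so by this estimate low counts in HSC3 DOX libraries rest on few molecules. MUC1 had 16 to 46 counts in the HSC3 DOX libraries, so this limit holds for its fall there too. The estimate ran high on simulated libraries, so the molecules may be more numerous than it says.

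With vehicle, KLK5 was the dominant kallikrein transcript in both lines. Levels are compared between genes only per exon length, as reads per kilobase of exon, scaled to depth as for CPM (RPKM). KLK5 stood at 59.1 ± 4.96 RPKM (mean ± SD, n = 3) in CAL27 and 142 ± 6.63 RPKM in HSC3. These levels lay above 98.1% and 99.2% of the genes that had a length and any count in that group. As an exception, with no correction for exon length, KLK5 made up 82.5% to 84.2% of the members' summed CPM in CAL27 vehicle and 91.8% to 92.1% in HSC3 vehicle libraries. In CAL27 the chymotrypsin-like KLK7 came next at 1.90 ± 0.154 RPKM. KLK10 followed at 1.69 ± 0.308, KLK6 at 1.57 ± 0.176 and KLK8 at 1.51 ± 0.0266 RPKM, and the library ranges of these 4 genes overlapped from each to the next. KLK11 was lower and apart at 0.611 ± 0.0897 RPKM. KLK14 at 0.236 ± 0.0803 and KLK13 at 0.184 ± 0.0340 RPKM closed the order and overlapped each other. In HSC3 the order differed. KLK10 came second at 3.57 ± 0.372 RPKM, and KLK6 next at 0.997 ± 0.0777 RPKM, apart from its neighbours. KLK7 at 0.748 ± 0.106, KLK8 at 0.747 ± 0.106 and KLK13 at 0.555 ± 0.156 RPKM overlapped each other. KLK11 at 0.135 ± 0.0630 and KLK14 at 0.0580 ± 0.0564 RPKM were the lowest and overlapped. KLK9 and KLK12 were too low to judge in either line. KLK9 had at most 3 counts in any of the 12 libraries, and KLK12 had 0 to 12 counts, so neither entered a fit. Exon bases of KLK8 and KLK9 lie under other genes of the same strand for 40.1% and 96.3% of their length, and how reads there were assigned is not given in the sources used here. Genes on the opposite strand cover 12.2% of the exon bases of KLK5, 20.5% of KLK6, 6.32% of KLK10 and 9.04% of KLK12. The libraries were stranded, and the strand setting of the counting is not given, so a share of reads from those genes in these members was not tested.

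**Figure D1:**
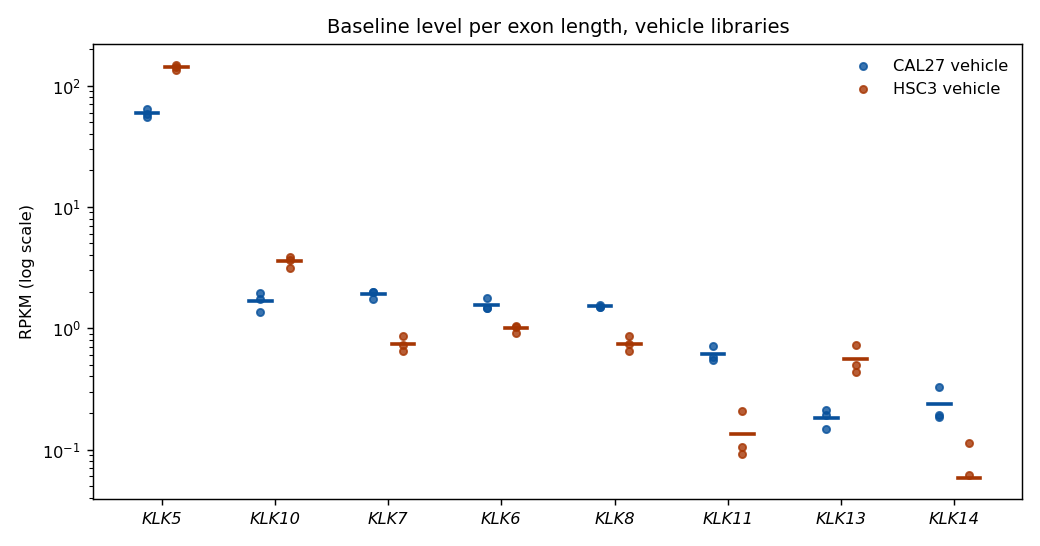
Kallikrein level with vehicle, in RPKM on a log axis, by gene, with 1 point per library (values of 0 are not drawn), a bar for the mean of 3 libraries and colours for CAL27 and HSC3. KLK5 sits far above every other member, at 59.1 RPKM in CAL27 and 142 RPKM in HSC3, and the next members sit between 1.51 and 3.57 RPKM (KLK10, KLK7, KLK6 and KLK8 in CAL27, and KLK10 in HSC3).

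The vehicle libraries of the lines differed for 7 of the 8 members tested at a 2-fold change and an adjusted p under 0.05. Of all 20694 genes tested, 13.2% were called higher and 18.7% lower in HSC3 than in CAL27, and of the members 3 were higher and 4 lower, with a median log2 difference of -0.84 against -0.12 over all genes. Cell line, count table and medium cannot be told apart in this comparison. The higher members were KLK5, KLK10 and KLK13. KLK5 stood at 107, 96.3 and 90.4 CPM in CAL27 and at 235, 246 and 224 CPM in HSC3 vehicle libraries, 2.40-fold higher in HSC3 (log2 difference 1.27 ± 0.095 SE, edgeR adjusted p = 1e-08). KLK10 was 2.11-fold higher (1.08 ± 0.14 SE, adjusted p = 6.6e-06) and KLK13 3.02-fold higher (1.59 ± 0.35 SE, adjusted p = 0.00088) in the same edgeR fit. KLK7 was 2.54-fold lower in HSC3 (log2 difference -1.35 ± 0.15 SE, edgeR adjusted p = 9.9e-07). KLK8, a trypsin-like protease also known from the brain as neuropsin, was 2.02-fold lower (adjusted p = 0.00042 by edgeR), KLK11 4.58-fold lower (adjusted p = 0.0092) and KLK14 4.04-fold lower (adjusted p = 0.026). For KLK14 this rests on 24 to 54 counts in CAL27 and 0 to 16 in HSC3 vehicle libraries. The HSC3 vehicle libraries alone would not have passed the filter on low counts. KLK14 was kept through the other groups, so its call here is not independent of the filter. KLK6 was lower by less than 2-fold (-0.65 ± 0.14 SE, edgeR adjusted p = 0.00097). Scaling to library totals in place of the trimmed mean moved the median of all genes in this comparison from -0.12 to -0.39, and KLK5 stood 1.38 above the median on the log2 scale under either. With library totals KLK5 and KLK10 dropped under 2-fold (1.00 and 0.81). KLK10 also dropped under 2-fold without CAL27 vehicle replicate 2 or HSC3 vehicle replicate 1 (0.93 and 1.00), and KLK8 without HSC3 vehicle replicate 1 (-0.93). KLK14 missed the threshold without CAL27 vehicle replicate 1 or without HSC3 vehicle replicate 2 (edgeR adjusted p = 0.095 and 0.058).

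In CAL27 cells the members moved both ways with DOX. Called members numbered 1 higher (KLK6) and 2 lower (KLK11 and KLK13) of 8 tested, beside 1.31% higher and 5.11% lower of all 19239 genes tested, and the median log2 fold change of the members was -0.17 against -0.0052 over all genes. KLK6, a trypsin-like protease that can cut extracellular matrix, stood at 3.49, 2.89 and 2.90 CPM with vehicle and at 6.52, 7.52 and 7.83 CPM with DOX. Every DOX library lay above every vehicle library, and KLK6 rose 2.35-fold (log2 fold change 1.23 ± 0.11 SE, edgeR adjusted p = 8.2e-09). KLK7 stood at 4.85, 4.90 and 4.22 CPM with vehicle and at 7.77, 7.81 and 7.36 CPM with DOX. Here too the groups did not overlap, and KLK7 was 1.64-fold higher (0.71 ± 0.089 SE, edgeR adjusted p = 1.5e-06), under the 2-fold threshold. KLK5 changed little in size. It stood at 107, 96.3 and 90.4 CPM with vehicle and at 119, 111 and 119 CPM with DOX, 1.19-fold higher without overlap (0.25 ± 0.050 SE, edgeR adjusted p = 5e-04). In the fit over all 12 libraries the adjusted p of KLK5 in CAL27 was 0.071 by edgeR.

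The members that fell in CAL27 were of low abundance. KLK11, a trypsin-like protease, gave 306, 183 and 218 counts in the vehicle libraries and 79, 38 and 52 in the DOX libraries, or 2.22, 1.69 and 1.80 CPM against 0.755, 0.369 and 0.404 CPM. It fell 3.77-fold (log2 fold change -1.91 ± 0.23 SE, edgeR adjusted p = 1.3e-06). The counts of KLK13 were 76, 41 and 60 with vehicle against 14, 16 and 12 after DOX, and fell 3.76-fold (-1.91 ± 0.37 SE, edgeR adjusted p = 0.00022). Both genes were lower in each DOX library than in each vehicle library. KLK10 stood at 7.42, 5.13 and 6.67 CPM with vehicle and 3.31, 4.08 and 4.31 CPM with DOX, 1.65-fold lower (-0.72 ± 0.13 SE, edgeR adjusted p = 2e-04). KLK8 stood at 2.78, 2.81 and 2.88 CPM with vehicle and 1.96, 1.92 and 1.79 CPM with DOX, 1.5-fold lower (-0.58 ± 0.12 SE, edgeR adjusted p = 0.00066). Neither passed the 2-fold threshold, though their groups did not overlap. For KLK14 the groups overlapped, with 54, 24 and 28 counts against 48, 36 and 62 (log2 fold change 0.60 ± 0.33 SE, edgeR adjusted p = 0.15). In bulk RNA, fewer cells of a kind and less RNA per cell cannot be told apart.

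In HSC3 cells KLK5 fell with DOX. It stood at 235, 246 and 224 CPM with vehicle and at 48.0, 63.3 and 65.3 CPM with DOX, without overlap. The fall was 4.0-fold (log2 fold change -2.0 ± 0.11 SE, edgeR adjusted p = 5.2e-07), and the value stayed between -2.09 and -1.87 over the alternatives tried. The summed level of the members went from 256 ± 11.5 to 72.4 ± 9.45 CPM (SD, n = 3) in HSC3, and from 117 ± 9.73 to 138 ± 4.31 CPM in CAL27. In HSC3, 3 of 8 members tested were called lower (KLK5, KLK10 and KLK13) and 1 higher (KLK14), beside 4.4% lower and 1.58% higher of all 18021 genes tested. The median log2 fold change was -0.90 for the members against -0.0097 over all genes. KLK10 stood at 14.8, 13.9 and 12 CPM with vehicle and at 4.98, 5.57 and 5.23 CPM with DOX, 2.58-fold lower (-1.37 ± 0.13 SE, edgeR adjusted p = 1.9e-05). The counts of KLK13 were 130, 106 and 226 with vehicle against 77, 66 and 38 after DOX, and fell 3.26-fold once scaled (-1.71 ± 0.36 SE, edgeR adjusted p = 0.0042). For both genes the groups did not overlap in CPM. KLK6 stood at 1.79, 2.08 and 2.04 CPM with vehicle and 3.13, 3.12 and 3.74 CPM with DOX, 1.69-fold higher (0.75 ± 0.19 SE, edgeR adjusted p = 0.012). Without HSC3 vehicle replicate 1 the adjusted p was 0.057, and 0.051 without HSC3 DOX replicate 3, both by edgeR. KLK7 stood at 1.60, 1.79 and 2.11 CPM with vehicle and 3.32, 2.52 and 2.62 CPM with DOX, without overlap, and missed the threshold (0.62 ± 0.21 SE, edgeR adjusted p = 0.053, range 0.0042 to 0.18 over the alternatives). KLK8 overlapped between the groups, at 1.20, 1.37 and 1.60 CPM against 0.789, 1.29 and 1.03 CPM (-0.43 ± 0.29 SE, edgeR adjusted p = 0.33).

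KLK11 and KLK14 rested on few counts in HSC3. In that line KLK11 passed the filter on low counts through its vehicle libraries, and KLK14 through its DOX libraries. The filter thus kept each gene through the group where it was higher, so neither difference is independent of the filter. Vehicle libraries held 38, 53 and 34 counts of KLK11, and DOX libraries 0, 15 and 0 (log2 fold change -3.45 ± 1.3 SE, edgeR adjusted p = 0.079). Only DOX replicate 2 held any count, and without it the fit gave an adjusted p of 0.0035 by edgeR at a fitted value of -8.62, which depends on the prior count. Without DOX replicate 1 the edgeR adjusted p was 0.046. KLK11 in HSC3 was also called lower by DESeq2 (adjusted p = 0.018), in the edgeR fit over all 12 libraries (0.0039) and with the replicate block (0.042), so that 5 of 12 alternatives called it, with adjusted p from 0.0035 to 0.30. DESeq2 called 4 members lower in HSC3 against 3 by edgeR. KLK14, an activator of PAR2 and of other proenzymes, gave 0, 6 and 16 counts in vehicle libraries against 126, 60 and 60 in DOX libraries, 8.49-fold higher (3.09 ± 0.95 SE, edgeR adjusted p = 0.033). Every DOX library lay above every vehicle library. The call was lost without HSC3 vehicle replicate 2 (edgeR adjusted p = 0.10) and without HSC3 DOX replicate 3 (0.058), and with the replicate block (0.067), and the adjusted p ranged from 0.0029 to 0.10 over all alternatives in which KLK14 was tested. At 8.93 to 17.2 counts for each molecule, the 60 counts of a DOX library stand for few molecules by that estimate, which ran high on simulated libraries. With counts divided by it, KLK11 and KLK14 were too low to test in HSC3, while KLK5 gave -2.0, KLK10 -1.36 and KLK13 -1.77 (edgeR adjusted p = 2.8e-08, 6.5e-06 and 0.0024).

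**Figure D2:**
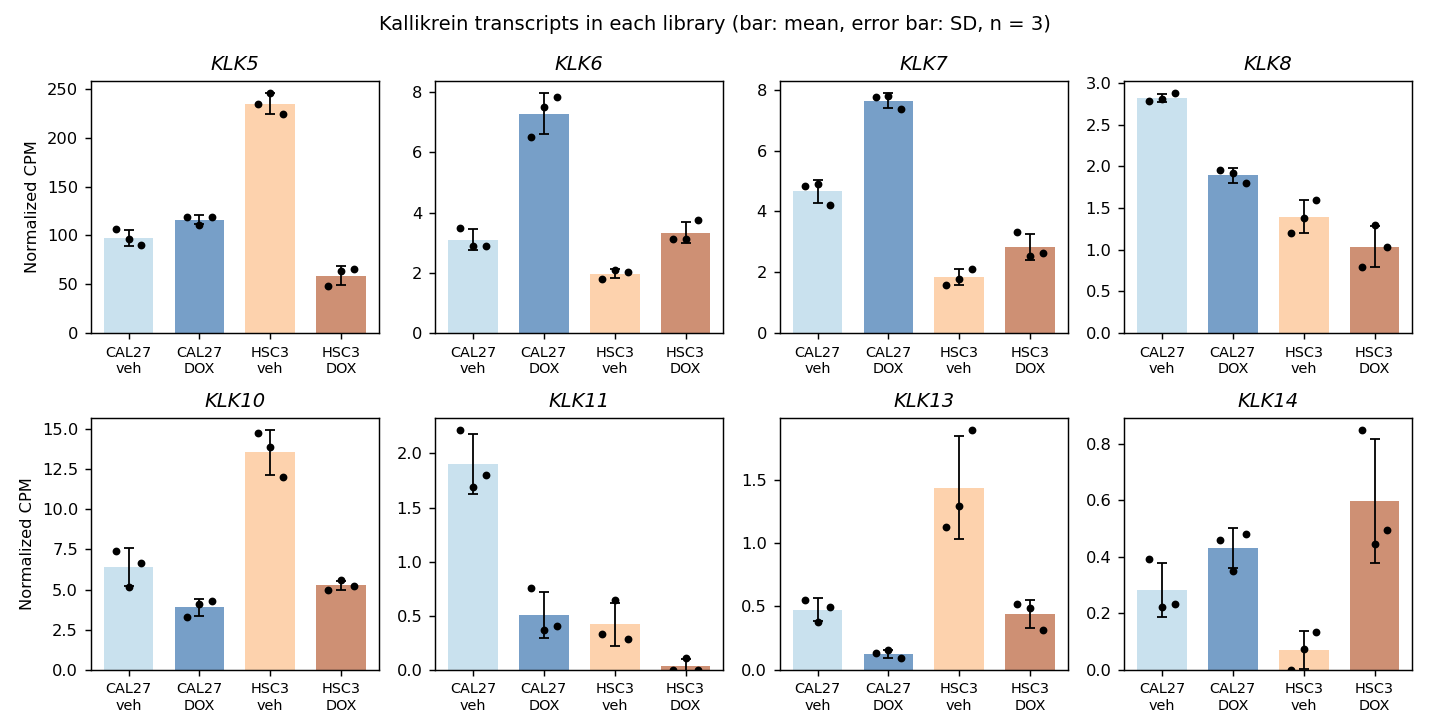
Normalized CPM (y axis, from 0) of the 8 members tested, by group, with 1 point per library, bars for the mean and error bars for the SD (n = 3). In HSC3, KLK5 goes from 224 to 246 CPM with vehicle to 48.0 to 65.3 CPM with DOX, while the CAL27 DOX libraries lie between 111 and 119 CPM, and KLK6 lies higher with DOX in both lines.

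Whether the response to DOX differed between the lines was tested as an interaction over all 12 libraries. It was called for 1 member of 8, KLK5, in the lower direction and for 0 in the higher direction (edgeR), beside 3.02% lower and 2.19% higher of all 20694 genes tested, and the members' median difference was -0.28 against -0.022. At an unadjusted p under 0.05 the higher direction held KLK14 (unadjusted p = 0.023 by edgeR), and DESeq2 called 1 member there. For KLK5 the response in HSC3 was lower than that in CAL27 by 2.25 on the log2 scale (-2.25 ± 0.13 SE, edgeR adjusted p = 4.9e-08), with values between -2.31 and -2.10 over the alternatives. The response of KLK10 was also lower in HSC3, by a difference of -0.65 (± 0.20 SE, edgeR adjusted p = 0.034), under the 2-fold threshold. That adjusted p ran up to 0.11 when a library was left out, and lay above 0.05 without CAL27 vehicle replicate 2 or 3, CAL27 DOX replicate 5 or 6, HSC3 vehicle replicate 1 or 2, or HSC3 DOX replicate 3. For the other 6 members the difference did not pass. It was -0.48 for KLK6 (95% interval -0.87 to -0.084, edgeR adjusted p = 0.11), -0.091 for KLK7 (interval -0.50 to 0.31, adjusted p = 0.84) and 0.15 for KLK8 (interval -0.41 to 0.72, adjusted p = 0.80). The intervals were wider for the low members, at -3.56 to 0.47 for KLK11, -0.77 to 1.17 for KLK13 and 0.56 to 4.41 for KLK14 (edgeR adjusted p = 0.35, 0.85 and 0.091). KLK11 in the interaction reached an edgeR adjusted p of 0.0018 without HSC3 DOX replicate 2, and KLK14 of 0.031 without HSC3 vehicle replicate 3.

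**Figure D3:**
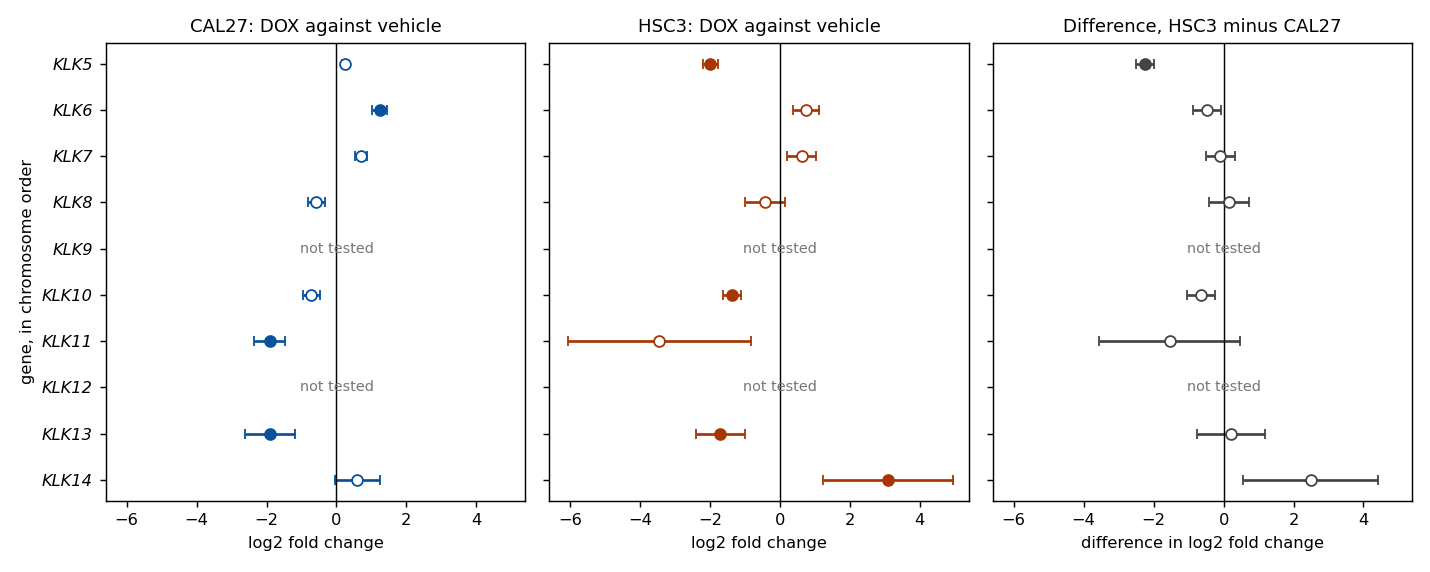
Log2 fold change of DOX against vehicle in CAL27 (left) and HSC3 (middle) and the difference between them (right) for the 10 members in chromosome order, with 95% intervals. Filled points passed an adjusted p under 0.05 and a 2-fold change, and KLK5, at 0.25 in CAL27 and -2.0 in HSC3, is the one filled point on the right.

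In chromosome order, the fitted values of KLK6 and KLK7 were above 0 in both lines, those of KLK8, KLK10, KLK11 and KLK13 were below 0 in both, and that of KLK14 was above 0 in both, while KLK5 was the 1 member tested whose signs differed. These are signs only. KLK14 in CAL27 and KLK7, KLK8 and KLK11 in HSC3 did not pass the test, KLK9 and KLK12 were not tested, and no test of the order was made.

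**Figure D4:**
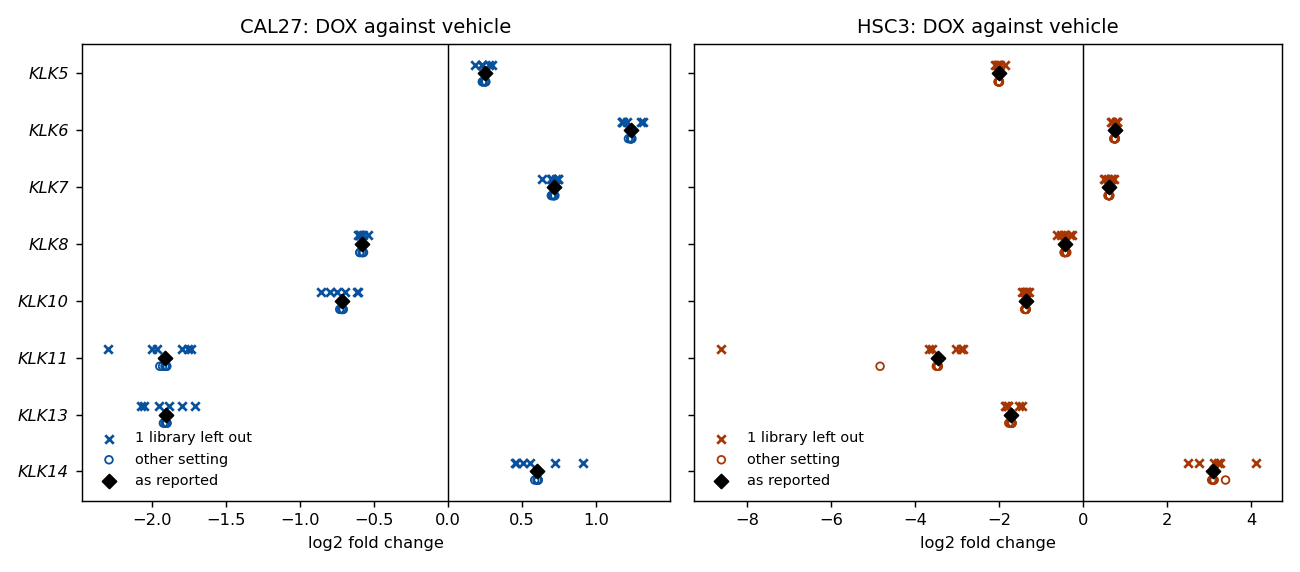
Log2 fold change of DOX against vehicle for the 8 members tested as reported (diamonds), with 1 library left out (crosses) and under the other settings (circles), with axes of different range in CAL27 and HSC3. All values of a member stay on its side of 0, and KLK11 in HSC3 spreads furthest, from -8.62 to -2.86.

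The 5 genes whose pattern was most like that of KLK5 over the 12 libraries, after subtracting each line's mean, were CDA (Pearson r = 0.990), H2BC7 (0.989), KIAA1549 (0.988), GTSE1 (0.988) and CDCA3 (0.987), of 8630 genes searched. CDA encodes cytidine deaminase, H2BC7 a histone H2B, and GTSE1 a protein named for its cell cycle expression. The log2 fold changes with DOX of the 5 genes ran from 0.032 (GTSE1) to 0.23 (CDA) in CAL27 and from -1.36 (CDA) to -0.53 (GTSE1) in HSC3, beside 0.25 and -2.0 for KLK5, so they were like KLK5 in pattern and smaller in size. The 12 libraries share 4 groups.

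Of the other kallikreins, KLK1 to KLK4 and KLK15, KLK1 alone was abundant enough to test. KLK1, the tissue kallikrein that releases kinins, is named although its level is low. It stood at 1.33, 1.5 and 1.30 CPM with vehicle and 0.535, 0.330 and 0.357 CPM with DOX in CAL27, and at 2.38, 3.45 and 3.67 against 0.580, 1.19 and 0.711 CPM in HSC3. It fell in both lines (log2 fold change -1.76 ± 0.22 SE, edgeR adjusted p = 1.6e-06, and -1.94 ± 0.31 SE, adjusted p = 0.00083).

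Genes that act with the kallikreins were counted by list. In this paragraph and the next, shares of all genes go with the edgeR calls only. Counts at an unadjusted p or by DESeq2 have no such share beside them and cannot be set against one. Of 15 inhibitors, 11 were tested in CAL27 and 4 were called lower and 0 higher (edgeR), beside 5.11% lower and 1.31% higher of all genes tested. At an unadjusted p under 0.05, 4 were lower and 3 higher, and DESeq2 called 4 lower and 0 higher. The list median by edgeR was 0.051 against -0.0052 over all genes. SLPI, which blocks several serine proteases of epithelia, went from 81.9, 77.9 and 76.8 to 45.2, 36.3 and 31.2 CPM (log2 fold change -1.08 ± 0.14 SE, edgeR adjusted p = 0.0022). The other 3, named after their values were seen, were SERPINA3, SERPINA5 and SPINK5, and SPINK5 went from 4.2, 4.08 and 3.99 to 1.86, 1.76 and 1.65 CPM (-1.23 ± 0.12 SE, edgeR adjusted p = 3.6e-08). SERPINA3 had 2 to 14 counts and SERPINA5 10 to 27 in the CAL27 DOX libraries. Both passed the filter on low counts through their vehicle libraries, where they were higher, so neither call is independent of the filter. In HSC3, 0 of 10 inhibitors tested were called by edgeR, with 3 higher and 0 lower at an unadjusted p under 0.05, and 0 were called by DESeq2 (list median -0.13 against -0.0097). There SPINK5 stood at 3.95, 2.81 and 2.82 CPM against 2.55, 3.10 and 2.50 CPM (-0.24 ± 0.21 SE, edgeR adjusted p = 0.46). For SPINK5 the difference between the lines was 0.99 on the log2 scale (edgeR adjusted p = 0.0070), just under 2-fold.

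Among 17 other proteases of epithelial surfaces, the lysosome and the plasminogen system, 3 of 15 tested fell in CAL27 (list median -0.54) and 2 of 11 in HSC3 (list median -0.31), beside 5.11% and 4.4% of all genes, whose medians were -0.0052 and -0.0097, and 0 were called higher in either (edgeR). At an unadjusted p under 0.05, 10 were lower and 2 higher in CAL27, and 6 lower and 4 higher in HSC3, and DESeq2 called 3 lower and 0 higher in each line. TMPRSS4, a membrane serine protease, fell in both (-1.11 ± 0.10 SE, edgeR adjusted p = 2.2e-07, and -1.41 ± 0.16 SE, adjusted p = 7e-05). The other CAL27 genes, named after their values were seen, were TMPRSS2 and TMPRSS11D. With 8 to 25 counts in the CAL27 DOX libraries, TMPRSS11D passed the filter on low counts through its vehicle libraries, so its call is not independent of the filter. CTSV, a cysteine cathepsin of keratinocytes named after its values were seen, went from 11.4, 13.5 and 14 to 2.62, 2.94 and 2.93 CPM in HSC3 (-2.20 ± 0.14 SE, edgeR adjusted p = 1.2e-06) and from 50.4, 47.7 and 47.6 to 58.5, 55.4 and 56.6 CPM in CAL27 (0.22 ± 0.042 SE, adjusted p = 0.00019), a difference between the lines of -2.42 (edgeR adjusted p = 7e-09). In the interaction, 2 of 16 proteases tested were called lower and 2 higher (edgeR), beside 3.02% lower and 2.19% higher of all genes. The lower ones were CTSV and MEP1A, the latter named after its values were seen (-6.12, edgeR adjusted p = 0.0089). MEP1A had 4 to 12 counts in HSC3 vehicle and 0 in HSC3 DOX libraries, and was too low to test in HSC3 alone. It entered this fit through its CAL27 libraries, so its call rests on counts near the floor. The higher 2, named after their values were seen, were PLAT (1.04, edgeR adjusted p = 8.6e-06) and CTSC (1.06, adjusted p = 4.6e-06). Both were lower with DOX in CAL27 and higher in HSC3, by less than 2-fold. Of 17 substrates and receptors, 3 of 12 tested fell in CAL27 (list median -0.35) and 2 of 14 in HSC3 (list median -0.35), with 0 called higher (edgeR). Of all genes, 5.11% and 4.4% were called lower, with medians of -0.0052 and -0.0097. At an unadjusted p under 0.05, 7 were lower and 2 higher in CAL27, and 6 lower and 2 higher in HSC3, and DESeq2 called 4 and 1 lower and 0 higher. F2R, the receptor PAR1, went from 251, 245 and 244 to 101, 90.9 and 96.4 CPM in CAL27 and from 243, 241 and 248 to 103, 89.1 and 90.4 CPM in HSC3 (log2 fold change -1.36 ± 0.041 SE, edgeR adjusted p = 1.9e-15, and -1.38 ± 0.068 SE, adjusted p = 2.6e-07). The desmosomal cadherin DSC3 fell in CAL27 (-1.04 ± 0.046 SE, edgeR adjusted p = 5.5e-13), and F2RL2 (PAR3), named after its values were seen, was called lower in both lines. In HSC3, F2RL2 had 114 to 174 counts with vehicle and 0 to 60 with DOX (-2.86 ± 0.85 SE, edgeR adjusted p = 0.027). There it passed the filter on low counts through its vehicle libraries, so that call is not independent of the filter. F2RL1, which encodes PAR2 and is named for its place among the kallikreins' receptors, was lower by less than 2-fold in both (-0.94 and -0.70, edgeR adjusted p = 3.2e-13 and 1.2e-05).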

How the data were processed

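RNA-seq counts per gene were deposited by the authors as 1 table per cell line. Reads had been aligned to GRCh38 with STAR 2.7.9a and counted with featureCounts (Subread 2.0.1) after FastQC 0.11.9, according to the submitters' processing notes. Libraries were made with the TruSeq Stranded mRNA kit. The strand setting of the counting, its gene annotation and the treatment of duplicates are not given in the sources used here. The members and the gene lists were chosen with earlier results of these data known. Named are all 10 members, MUC1, up to 4 called genes of each list whose mean log2 CPM reached 3, and the 5 genes most like KLK5. Exceptions are marked, and KLK1 is one.

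Counts were tested with edgeR 4.0.16 (quasi-likelihood, TMM, filterByExpr with a minimum of 10 counts, R 4.3.3), within each line for DOX and over all 12 libraries for the baseline and the interaction. P-values were adjusted by Benjamini-Hochberg across every gene in a fit. Calls were made at an adjusted p under 0.05 and a fold change above 2. Except where stated, shares of all genes are given for these calls only, not for other thresholds or DESeq2. SE is the fold change divided by the square root of F. Lengths for RPKM came from GENCODE v44 exons. DESeq2 1.42.0, other scalings, no filter, counts divided by counts per molecule and single libraries left out were alternatives. Replicates differed by more than sampling noise, with a chi-square per degree of freedom of 7.71 to 141 over 12 pairs. HSC3 DOX replicate 1 stood apart, at 141 and 90.9 against DOX replicates 2 and 3, which gave 23.2 between them. The fits were tested on simulated data. The estimate of counts per molecule ran high on simulated libraries. A 3 against 3 permutation test cannot go below p = 0.10, so none was used.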

Additional observations from a re-analysis of the deposited data

Results flagged for a closer look

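The response to DOX differed between CAL27 and HSC3 for KLK5, by a test of the difference itself. The response in HSC3 minus that in CAL27 was -2.25 on the log2 scale (edgeR adjusted p = 4.9e-08). All 3 HSC3 DOX libraries lay below all 3 HSC3 vehicle libraries, and all 3 CAL27 DOX libraries lay above all 3 CAL27 vehicle libraries.

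The response of KLK10 differed by -0.65 between the lines in the same test (edgeR adjusted p = 0.034, 0.016 to 0.11 over the alternatives).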

How the results depend on the processing

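Of 32 values of single members, 22 kept their direction and their side of the threshold under every alternative but the fold thresholds, which are given as counts. With no fold threshold the calls in CAL27 were 4 lower and 3 higher (4203 and 4351 over all 19239 genes tested), and 2 higher at 1.5-fold. In HSC3 they were 2 higher at 1.5-fold and with no fold threshold, 0 with counts divided by counts per molecule, and 0 to 1 with 1 library left out, and DESeq2 called 4 lower. The interaction gave 2 lower at 1.5-fold and with no fold threshold, 1 to 2 lower and 0 to 1 higher with 1 library left out, and 1 higher with DESeq2 and with divided counts. Library totals gave 1 higher at baseline. For these other settings the shares of all genes are not given here, so the counts describe only how the members' calls moved. With a library left out, the interaction ran from -0.21 to 0.044 for KLK7 and from -0.040 to 0.34 for KLK8, and the cause was not tested. In 1 fit over all 12 libraries, CAL27 had 568 genes lower against 984, and HSC3 1237 against 793 lower and 545 against 284 higher.

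In HSC3 same-numbered libraries deviated together with r = -0.20, 0.35 and -0.35, and the highest r of any pair was 0.48, for vehicle 3 with DOX 1. The deviations were taken from the mean of only 3 libraries in each group. These values therefore cannot decide whether the cultures were set up in pairs. With the replicate block, 4 members were called lower (KLK11 added) and 0 higher (KLK14 lost). The CAL27 DOX libraries are numbered 4 to 6, so no paired fit was possible there. KLK9 and KLK12 were removed by the filter on low counts, and KLK11 and KLK14 had at most 53 and 126 counts in any HSC3 library.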
